A study of Mus musculus with 12 samples.

Results

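The genes described here encode the factors that hold RNA polymerase II (RNAPII) just downstream of promoters and release it again. They are 10 of the 54446 genes in the RNA-seq tables, chosen by symbol: Nelfa, Nelfb, Nelfcd and Nelfe for the negative elongation factor NELF, Supt5 and Supt4a for DSIF, Cdk9, Ccnt1 and Ccnt2 for P-TEFb, and Hexim1 for its inhibitor. All 10 were found, with 60 transcript models between them. For each gene, mRNA levels were taken from the RNA-seq tables, and ChIP-seq peaks were collected over the gene body, 1 kb upstream of it and 5 kb downstream of it (mm10).

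After initiation, RNAPII that carries Ser5-phosphorylated tails (Ser5p) can halt a short distance into the gene, held there by NELF together with DSIF. P-TEFb, the kinase CDK9 with cyclin T1 or T2, phosphorylates NELF, DSIF and the RNAPII tail, whereupon NELF leaves, DSIF turns into an elongation factor and Ser2-phosphorylated RNAPII (Ser2p) elongates. HEXIM1 keeps a pool of P-TEFb inactive in a particle built on the 7SK RNA, and release from this particle is a main way in which cells adjust active P-TEFb.

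The study compared mouse embryonic stem cells (mESCs, line ES-E14) with NIH3T3 fibroblasts, and mapped Ctr9, a subunit of the Paf1 elongation complex, alongside pausing factors. RNA-seq and ChIP-seq for Ctr9 and for H3K27ac, a mark of active promoters and enhancers, were done in both cell lines, whereas NELFA, RNAPII Ser5p and RNAPII Ser2p were mapped in mESCs. Both lines grew in the same medium with serum and LIF and were otherwise untreated. Ctr9 was precipitated through a GFP tag knocked into the Ctr9 gene of sorted pools of cells, and NELFA through GFP in mESCs that carry a LAP-tagged NELFA. The Ser5p precipitation also used the NELFA-tagged mESCs. Each assay had 1 library per cell type, so no difference below has a replicate check, and no test between cell types was possible.

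The RNA-seq tables summed to 26400407 estimated counts in mESCs and 28849497 in NIH3T3 cells, and the 7 peak lists held between 1675 (Ser2p) and 44748 (mESC Ctr9) peaks. The numbers of reads behind the peak lists are not given with them. All 8 mESC markers, with Pou5f1, Sox2 and Nanog among them, were at least 2-fold higher in mESCs, with summed levels of 2938 TPM (transcript abundance relative to all transcripts of the library, scaled for length) against 26.9 TPM. All 8 fibroblast markers were at least 2-fold higher in NIH3T3 cells, with 84.9 TPM in mESCs and 2808 TPM in NIH3T3 cells, and Col3a1 was listed at 0 in mESCs. Markers of endoderm, trophectoderm and neural cells reached at most 2.21 TPM in mESCs and 2.85 TPM in NIH3T3 cells.

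The sequences of 3 stretches are shown first. They are printed from the RefSeq assembly GRCm38.p6 (the same coordinates as mm10) on the strand of the gene. The bases before the Hexim1 start are shown because they hold the strongest NELFA and Ser5p summits found at any of the genes.
Hexim1, chr11:103116075-103116230, plus strand: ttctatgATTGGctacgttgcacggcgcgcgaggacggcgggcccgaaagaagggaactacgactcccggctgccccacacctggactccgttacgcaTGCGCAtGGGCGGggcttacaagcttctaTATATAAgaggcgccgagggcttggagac
Capitals mark a CCAAT box read on the other strand, an NRF1 half-site (TGCGCA), a GC box (GGGCGG) and a TATA-like run (TATATAA). The stretch ends 1 base before the GENCODE start, and the NELFA summit falls on base 73.
The bases before Supt5 are shown because NELFA and Ser5p summits met at its start.
Supt5, chr7:28338747-28338896, minus strand: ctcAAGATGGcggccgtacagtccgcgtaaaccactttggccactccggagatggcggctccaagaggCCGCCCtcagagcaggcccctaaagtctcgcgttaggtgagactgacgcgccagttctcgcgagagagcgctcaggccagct
Capitals mark an AAGATGG match, the core that the factor YY1 is known to bind, and a GC box on the other strand. The NELFA summit is the last base shown, 150 bases from the left.
At Nelfa, the NELFA summit lay not before the gene but in its first coding exon, so the bases around the summit are shown.
Nelfa, chr5:33936136-33936236, minus strand: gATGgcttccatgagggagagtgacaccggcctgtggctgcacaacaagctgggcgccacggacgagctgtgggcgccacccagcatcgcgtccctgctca
Capitals mark the start codon of Nelfa-201. The summit is base 51 of the stretch and base 50 of the coding sequence.

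The promoter table of RefSeq (250 bases before to 50 bases after each start) held 8 of the 10 genes, all but Nelfcd and Nelfe. A GC box (GGGCGG, either strand) was present in 8 of these 8 promoters, against 35.7% of all 32851 promoters of the table. CCAAT was found in 3 (Cdk9, Ccnt2, Hexim1; 37.4% of all promoters), the ETS core CCGGAAG in 3 (Supt4a, Cdk9, Ccnt1; 8.86%), TATAAA in Nelfb (13.6%), TGCGCA in Hexim1 (7.76%) and the E-box CACGTG in 0 (7.15%). After the sequences were seen, 2 further words were searched: TATATAA was present in Hexim1 (3.24% of all promoters) and AAGATGG in Nelfa, Supt5 and Supt4a (6.34%). In Hexim1 the TATATAA match began at base -123 from the RefSeq start. The GENCODE start of Hexim1 lies 94 bases upstream of the RefSeq one. The base composition of the 8 promoters ranged from 53.0% (Nelfb) to 78.3% G and C (Cdk9). These matches describe the letters only.

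All 10 genes were expressed in both cell types. The level of a gene is its most abundant transcript in TPM, a scale that accounts for length. Ordered by this level, mESCs ran from Supt5 and Supt4a at the top through Hexim1, Cdk9, Nelfcd, Nelfa, Nelfb, Ccnt2 and Nelfe to Ccnt1. In NIH3T3 cells the order began with Supt5, Supt4a and Cdk9, and Hexim1 was in the ninth place, followed by Ccnt1. With 1 library per cell type, neighbours in these orders that differ by a few percent cannot be separated from library-to-library spread, which is unknown. Within the expressed protein-coding genes (TPM of at least 1), the members stood between the 56.5th percentile (Ccnt1) and the 87.8th (Supt5) in mESCs and between the 52.1st (Ccnt1) and the 82.1st (Supt5) in NIH3T3 cells. In the top 25% of detected genes, the class the study used for high expression, there were 8 members in mESCs and 6 in NIH3T3 cells. Each library was made from bulk RNA, so that fewer expressing cells and less mRNA per cell cannot be told apart.

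**Figure D1:**
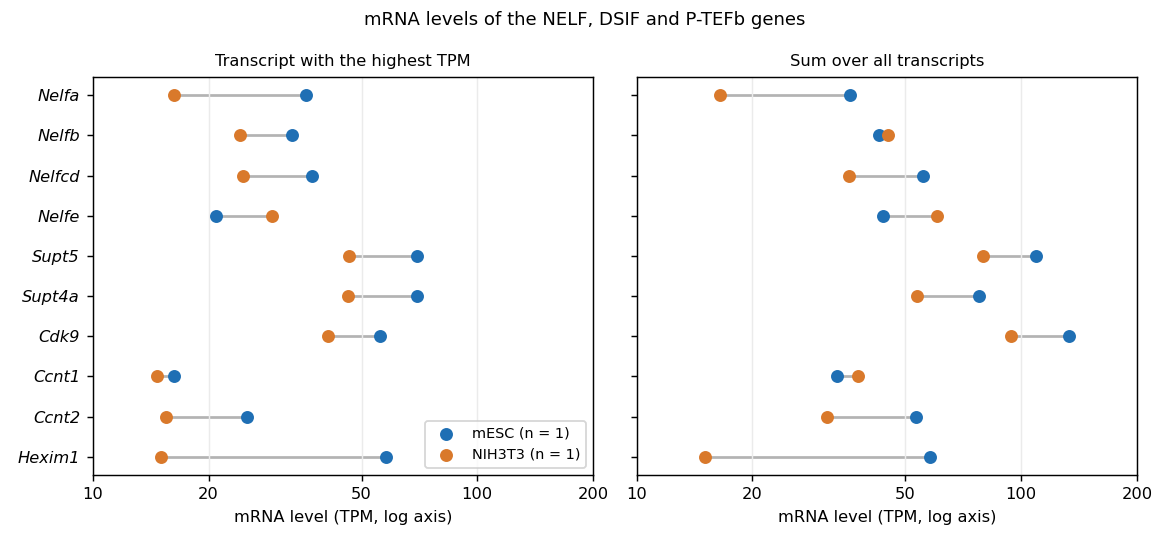
mRNA level of each gene in TPM (log axis) in mESCs (blue) and NIH3T3 cells (orange), 1 library each, for the transcript with the highest TPM (left) and summed over all transcripts (right). Hexim1 has the widest gap in both panels (58.1 against 15.1 TPM), and Nelfb and Ccnt1 change order between the panels.

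Between the cell types, 2 of the 10 genes were at least 2-fold higher in mESCs on the log2(TPM + 1) scale, Hexim1 and Nelfa. Across 12379 protein-coding genes with at least 1 TPM in either cell type, 23.8% were at least 2-fold higher in mESCs, so the members' share was near that of all genes. No member was at least 2-fold higher in NIH3T3 cells, where 20.0% of all genes were. The median log2 ratio of the 10 genes was 0.58, beside 0.13 for all genes, whose quartiles were -0.73 and 0.94. Of the 10 genes, 9 were higher in mESCs by this measure, beside 54.4% of all genes, and 7 were when TPM was summed over transcripts.

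Hexim1, which encodes the inhibitor of P-TEFb, was the member that differed most. Its single transcript had 58.1 TPM in mESCs and 15.1 TPM in NIH3T3 cells, from 3928 and 1109 estimated counts. The log2 ratio was 1.88, at the 89.6th percentile of all genes. The ratio of CPM (estimated counts scaled to the library total) was 3.87, with an exact 95% interval of 3.62 to 4.14 that covers counting error only. Because Hexim1 has 1 transcript, its value did not depend on how reads were divided among models. Its paralog Hexim2, a second P-TEFb inhibitor, was expressed at a lower level and in the same direction, at 6.39 TPM in mESCs and 1.89 TPM in NIH3T3 cells.

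Relative to its target, Hexim1 mRNA stood at 1.11 times the TPM of Cdk9-201, the main full-length Cdk9 transcript, in mESCs and at 0.368 times in NIH3T3 cells. Against Ccnt1 the ratio of highest transcripts was 3.57 in mESCs and 1.03 in NIH3T3 cells. With all transcripts summed, the ratio of Hexim1 to Ccnt1 was 1.75 and 0.400. These are ratios of mRNA levels within each library.

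Among the NELF genes, Nelfa, which encodes the subunit that was tagged for ChIP, had 35.8 TPM in mESCs and 16.3 TPM in NIH3T3 cells. Its log2 ratio was 1.09, just past the 2-fold limit, and the ratio of CPM was 2.23 (2.05 to 2.42). The RNA-seq library was labelled as ES-E14 without mention of a tag.
Nelfb had 33 and 24.2 TPM and Nelfcd 37.2 and 24.6 TPM, so both were within 2-fold. Nelfe, which encodes the RNA-binding subunit, was the only member lower in mESCs on this scale, with 20.9 TPM in mESCs and 29.3 TPM in NIH3T3 cells. Its log2 ratio was -0.46, and the ratio of CPM was 0.749 (0.692 to 0.811). NELF is built with 1 copy of each of these subunits. Taking the highest transcript of each gene, the highest of the 4 NELF mRNAs was 1.78 times the lowest in mESCs and 1.80 times in NIH3T3 cells. With TPM summed over transcripts, these ratios were 1.55 and 3.66. By the highest transcript, Nelfe was the lowest of the 4 in mESCs and the highest in NIH3T3 cells. By the sum over transcripts, Nelfa was the lowest of the 4 in both cell types. Nelfcd was then the highest in mESCs and Nelfe the highest in NIH3T3 cells, so the low place of Nelfe in mESCs depended on the summary.

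By the highest transcript, but not by the sum over transcripts, the DSIF genes had nearly the same TPM within each cell type. Supt5, which encodes the large subunit SPT5, had 69.9 TPM in mESCs and 46.3 TPM in NIH3T3 cells. Supt4a, which encodes its small partner SPT4, had 69.9 and 46.0 TPM. The ratio of Supt5 to Supt4a was 1.00 in mESCs and 1.01 in NIH3T3 cells by the highest transcript, and 1.41 and 1.48 by the sum over transcripts. Their log2 ratios between cell types were 0.58 and 0.59. Supt4b, annotated as a processed pseudogene related to Supt4a, was listed at 0 in both libraries.

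For P-TEFb, the kinase gene had the most mRNA. Cdk9 had 56.0 TPM in mESCs and 41.0 TPM in NIH3T3 cells, but these values belong to different transcripts. In mESCs the highest model was Cdk9-209, a short coding model of 366 bases that rested on 185 estimated counts. Cdk9-201 had 52.4 TPM from 1741 estimated counts in mESCs and 41.0 TPM from 1457 in NIH3T3 cells. With transcripts under 500 bases left out, a choice made after the data were seen, the log2 ratio of Cdk9 moved from 0.44 to 0.35.
The cyclin genes Ccnt1 and Ccnt2 had less mRNA than Cdk9. Ccnt1 had 16.3 and 14.7 TPM, the smallest difference of any member by the highest transcript, with a log2 ratio of 0.14. Ccnt2 had 25.2 and 15.5 TPM. The ratio of Ccnt2 to Ccnt1 was 1.55 in mESCs and 1.06 in NIH3T3 cells by the highest transcript, and 1.60 and 0.830 by the sum, so which cyclin T mRNA was higher in NIH3T3 cells depended on the summary.

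By TPM, the division among transcripts differed most for Ccnt2, Nelfb and Ccnt1. In mESCs, Ccnt2-201, a coding transcript with the long last exon, had 17.6 TPM from 2179 estimated counts, and in NIH3T3 cells it had 0.015 TPM from 2.04. Ccnt2-207, a processed transcript that starts 22407 bases into the gene and has the same end, had 2.77 TPM in mESCs and 6.04 TPM in NIH3T3 cells. The sum of both was 20.4 TPM against 6.06 TPM, or 38.3% and 19.3% of the gene's TPM. Ccnt2-202, which ends 2129 bases earlier, kept a share of 47.4% and 49.5%. Since Ccnt2-201 and Ccnt2-207 share most of their sequence, their individual levels are estimates of the quantification program, and the sum is less dependent on it. Transcripts that are not protein-coding made up 19.5% of Ccnt2 TPM in mESCs and 50.4% in NIH3T3 cells.

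Nelfb and Ccnt1 likewise had larger shares of TPM outside protein-coding models in NIH3T3 cells. For Nelfb the share was 10.3% in mESCs and 36.6% in NIH3T3 cells, where retained-intron models reached 13.9 TPM, against 4.42 TPM in mESCs. For Ccnt1 it was 36.6% and 55.9%, with retained-intron models at 3.44 and 12.7 TPM. These shares were smaller when taken over estimated counts, at 3.56% and 16.4% for Nelfb and 7.19% and 9.72% for Ccnt1, and by counts the highest Ccnt1 transcript held 86.2% and 87.3%. With TPM summed over all models, Nelfb and Ccnt1 turned from higher to slightly lower in mESCs: 42.7 against 45.0 TPM for Nelfb, and 33.1 against 37.7 TPM for Ccnt1. Whether unspliced RNA contributed to these models was not tested.
Nelfcd had 32.6% and 31.2% of its TPM outside coding models, or 7.99% and 7.57% of its estimated counts, and Nelfa had 0.455% and 1.15% of its TPM. For Supt4a the share was 9.82% and 14.4% of TPM, or 12.3% and 17.9% of estimated counts. Nelfe was carried by 2 coding models, Nelfe-202 and Nelfe-204, which together held 93.9% of its TPM in mESCs and 83.1% in NIH3T3 cells. Nelfe-201, which has the most upstream start, had 0.354 TPM in mESCs and 4.83 TPM in NIH3T3 cells. Supt5-201 and Supt5-208 together held 96.0% and 88.4% of Supt5 TPM.

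**Figure D2:**
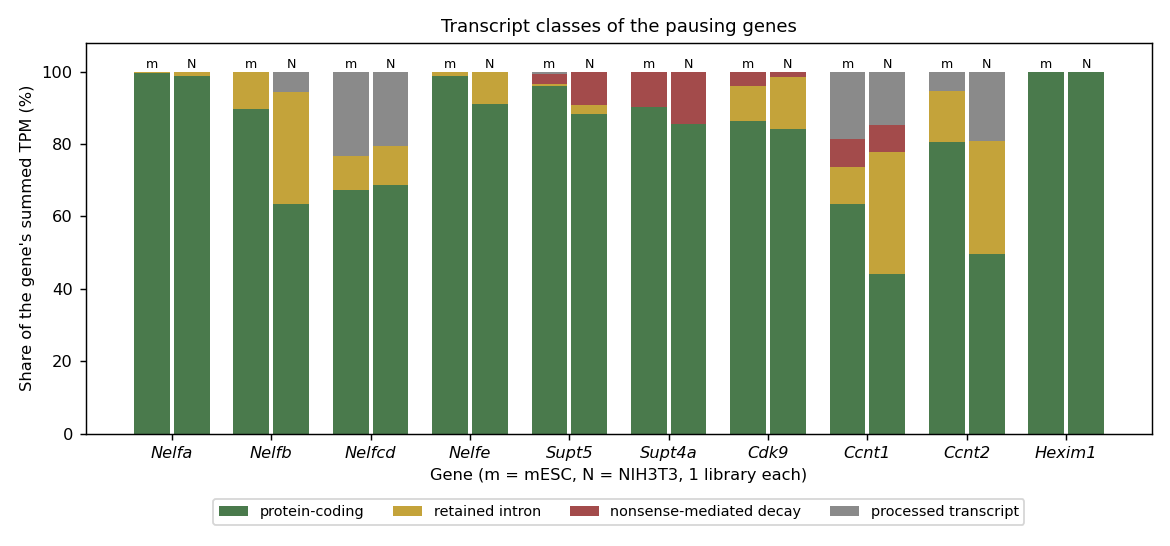
Share of each gene's summed TPM (%, stacked from 0) in protein-coding, retained-intron, nonsense-mediated decay and processed-transcript models, in mESCs (m) and NIH3T3 cells (N), 1 library each. The share outside protein-coding models is 19.5% and 50.4% in Ccnt2 and 10.3% and 36.6% in Nelfb (mESCs, NIH3T3), while Hexim1 has coding transcript only.

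The other genes of the pathway were taken from a list of 24 protein-coding genes that bind or regulate P-TEFb, phosphorylate the RNAPII tail or assist elongation. Of these, 4 were at least 2-fold higher in mESCs and 2 at least 2-fold higher in NIH3T3 cells, beside 23.8% and 20.0% of all genes. Higher in mESCs were Hexim2, Cdk12 (20.3 against 8.28 TPM), which encodes another Ser2 kinase, Supt16 (181 against 66.7 TPM), which encodes a subunit of the histone chaperone FACT, and Ell3. Ell3, of the ELL elongation factor family, had 9.85 TPM from 321 estimated counts in mESCs and was listed at 0 in NIH3T3 cells. Higher in NIH3T3 cells were Mllt1 (10.1 against 30.1 TPM) and Mllt3 (1.74 against 20.7 TPM), which encode the alternative reader subunits ENL and AF9 of the super elongation complex. Larp7 and Mepce, the proteins that stabilise 7SK RNA, were within 2-fold. The 7SK RNA gene Rn7sk had 27 and 35.8 estimated counts, too few to carry a comparison.

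The peak lists divided the genes by factor. Ctr9 peaks were present at all 10 members in mESCs and at 7 in NIH3T3 cells, H3K27ac peaks at all 10 in both cell types, NELFA peaks at 4, Ser5p peaks at 3 and Ser2p peaks at 0. Each count has to be read beside the share of expressed protein-coding genes with a peak in the same window. In mESCs this share was 73.5% for Ctr9, 72.7% for H3K27ac, 18.6% for NELFA, 22.7% for Ser5p and 12.1% for Ser2p. In NIH3T3 cells it was 44.9% for Ctr9 and 93.2% for H3K27ac. Among highly expressed genes, the class that held most members, the shares were 91.9% for Ctr9, 29.4% for NELFA, 36.3% for Ser5p and 21.3% for Ser2p in mESCs, and 65.8% for Ctr9 in NIH3T3 cells. Hence the counts of members were near these shares for most lists, and with 10 genes a difference of a few genes carries little weight.

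**Figure D3:**
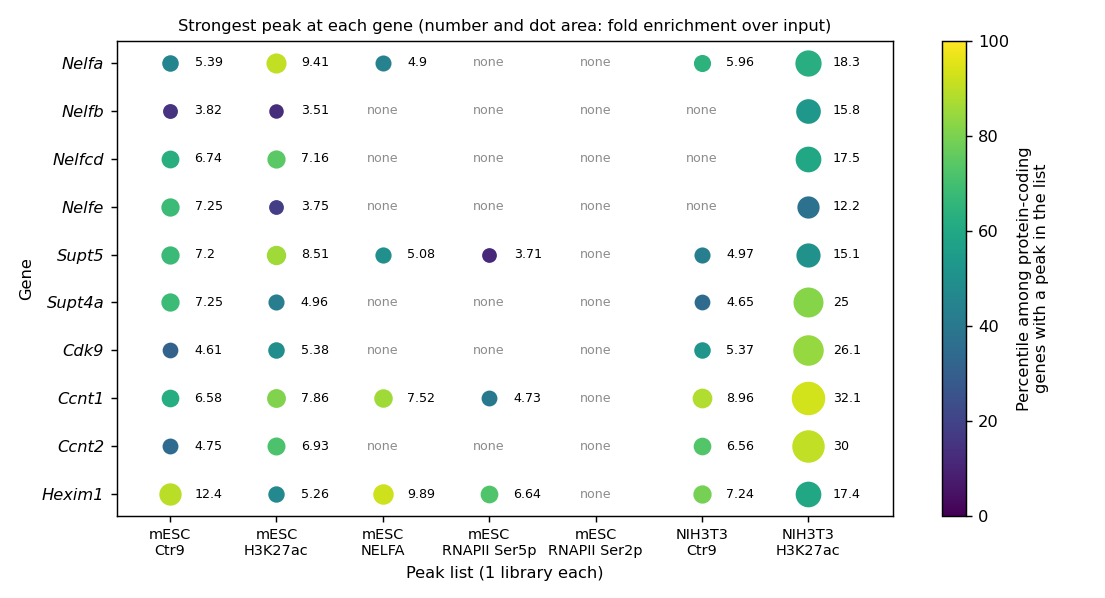
Strongest peak at each gene (rows) in each of the 7 peak lists (columns, 1 library each). Numbers and dot areas give fold enrichment as deposited, which for mESC H3K27ac may not be over input. Colour gives the percentile among protein-coding genes with a peak in that list, and "none" means no peak in the window. Hexim1 is at the 89.6th percentile for mESC Ctr9 and at the 92.5th for NELFA, and the Ser2p column is empty.

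NELFA peaks were found at Hexim1, Ccnt1, Supt5 and Nelfa, and at none of Nelfb, Nelfcd, Nelfe, Supt4a, Cdk9 and Ccnt2. Of these 4 genes, 3 (all but Nelfa) also had Ser5p peaks, and no other member had one. The share of all genes with a NELFA peak that also have a Ser5p peak is not given here. This overlap is therefore description only. The strongest NELFA peak of a member was at Hexim1, with a fold enrichment of 9.89 and a summit 84 bps upstream of the GENCODE start. It lay at the 92.5th percentile of the genes with a NELFA peak, whose median was 5.08. A second NELFA peak, at 4.27-fold, had its summit at -730 bps. Ser5p had 3 peaks over the same promoter, with summits at -858, -72 and 333 bps and enrichments of 6.28, 6.64 and 3.99. The main NELFA and Ser5p summits were thus 12 bps apart.

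At Supt5, the NELFA summit was 1 bp upstream of the GENCODE start (5.08-fold) and the Ser5p summit 28 bps downstream of it (3.71-fold). The Ser5p peak was weak within its list, at the 11.2th percentile of the genes with a peak.
At Ccnt1, both summits lay inside the GENCODE gene, 2925 bps (NELFA, 7.52-fold) and 2944 bps (Ser5p, 4.73-fold) from its start. The NELFA summit was in exon 2 of Ccnt1-208, in a part that is not coding, and 262 bps upstream of the RefSeq start of Ccnt1. The antisense transcript gene 9330020H09Rik covers the same position, with its own start 674 bps away. Which of these starts the peak belongs to cannot be told apart. The second NELFA and Ser5p peaks in the Ccnt1 window, 4432 and 4542 bps past its end, were 7 and 117 bps from the start of the neighbouring gene Kansl2.

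At Nelfa, NELFA was enriched 4.90-fold, near the median of genes with a peak, without a Ser5p peak. The peak covered chr5:33936007-33936755 and its summit was 227 bps from the GENCODE start and 85 bps from the RefSeq start, in the coding part of exon 1 (33936026 to 33936413). Its q-value was far smaller than for peaks of like enrichment. The -log10 q was 32.2, whereas the median was 7.89 over the 594 NELFA peaks within 10% of its fold enrichment, and 0 of these exceeded it.
After this was seen, the counts behind each NELFA peak were recovered from its fold enrichment and p-value. At the Nelfa summit there were 118 NELFA-ChIP fragments over a local input background of 19 fragments. The fold enrichment compares this background with 97.0, the ChIP fragments after library scaling by 0.822. The median background over 1977 NELFA peaks was 5 and the 99th percentile was 13, and 1 peak had a higher background than Nelfa. At the other members the background under NELFA peaks was between 4.16 and 7. Before scaling, the main Hexim1 summit had 95 fragments, Supt5 42 and Ccnt1 46.
Which of the mESC input libraries formed this background is not given in the sources used here. Whether the tagged copy of NELFA in these cells contributed to the fragments at Nelfa was not tested. The mESC H3K27ac summit at Nelfa, 280 bps from the GENCODE start, lay within the NELFA peak. The background of this H3K27ac peak was 15.6, beside a median of 12.2 over 1022 peaks of that list. Whether input formed the background of the mESC H3K27ac list is not given. The mESC Ctr9 peaks near the other end of Nelfa had backgrounds of 4.93 to 6.59, beside a median of 5.65 over 1017 peaks of that list. Neither the H3K27ac nor the Ctr9 values show the input at the NELFA summit.

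**Figure D4:**
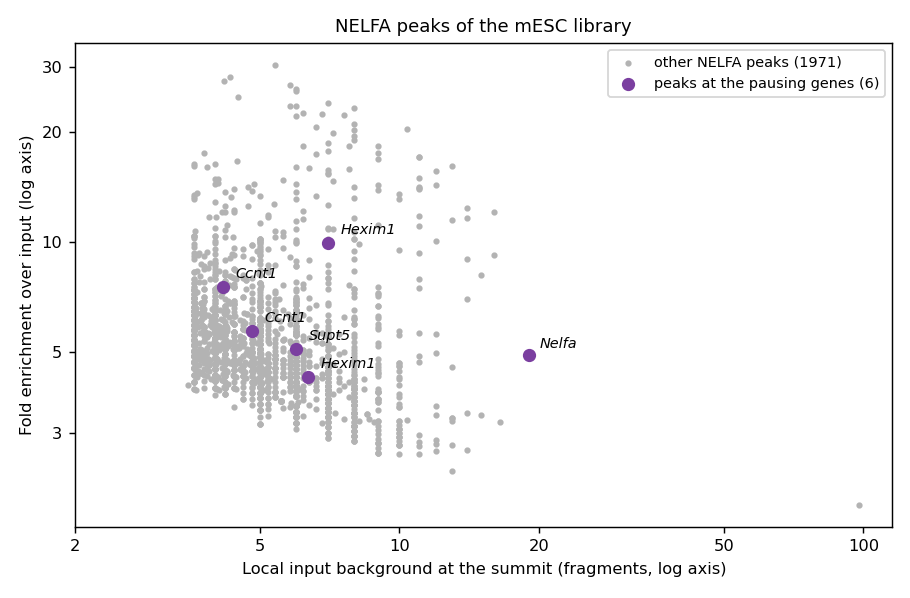
Fold enrichment over input (log axis) against the local input background at the summit in fragments (log axis) for each NELFA peak of the mESC library with a recovered background. Grey points are other NELFA peaks and purple points the 6 peaks at the pausing genes. Nelfa stands apart at a background of 19, while the other 5 lie between 4.16 and 7.

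In mESCs there were 54 Ctr9 peaks in the windows of the 10 genes, with 2 summits upstream, 24 in the gene body and 28 past the annotated end. In NIH3T3 cells there were 53, with 2 upstream, 33 in the body and 18 past the end. Summits past the end were 51.9% of the members' Ctr9 peaks in mESCs and 34% in NIH3T3 cells, beside 31.4% and 30.7% over all expressed genes counted the same way. Summits within 1000 bps of the gene start made up 5.56% and 5.66%, beside 5.12% and 11.2%. Of the 54 peaks in mESCs, 15 (27.8%) had their summit in the body of another gene, and so did 13 of the 53 (24.5%) in NIH3T3 cells, beside 24.8% and 26.0% over all expressed genes. Of the members' mESC peaks, 21 (38.9%) overlapped a NIH3T3 Ctr9 peak by at least 1 base, beside 21.9% over all genes expressed in both cell types. In the other direction, 24 of the NIH3T3 peaks (45.3%) overlapped a mESC peak, beside 48.1%.

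Hexim1 was the member with the strongest Ctr9 peak in mESCs, and the member with Ctr9 summits within 1000 bps of its GENCODE start in both cell types. The peak in mESCs was 3098 bases long, was enriched 12.4-fold with its summit 247 bps downstream of the start, and covered most of the 3495-base gene. In NIH3T3 cells the corresponding peak was 964 bases long and 7.24-fold enriched, with its summit 416 bps downstream. A second mESC peak of 4999 bases reached into the window from upstream, with its summit at -3123 bps and 8.35-fold enrichment. In all, Hexim1 had 7 Ctr9 peaks in mESCs and 2 in NIH3T3 cells. Fold enrichments of both cell types come from separate libraries and inputs and were not tested against each other.

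At Ccnt2 and Cdk9 the strongest Ctr9 peaks lay past the 3′ end. Those of Ccnt2 had summits 1912 bps past the end in mESCs (4.75-fold) and 1832 bps past it in NIH3T3 cells (6.56-fold). Of the Ccnt2 peaks, 1 of 4 in mESCs and 5 of 6 in NIH3T3 cells were past the end. At Cdk9 the strongest summits were 470 bps (4.61-fold, mESCs) and 1224 bps (5.37-fold, NIH3T3) past the end, and the latter lay at -415 bps from the start of the neighbouring gene Fpgs. Ccnt1 had 10 and 12 Ctr9 peaks. It was the member other than Hexim1 with Ctr9 summits within 1000 bps of its GENCODE start in mESCs, at -397 and 976 bps, and the first of these lay in the gene 4930415O20Rik. Its strongest NIH3T3 peak (8.96-fold) lay in Kansl2.

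**Figure D5:**
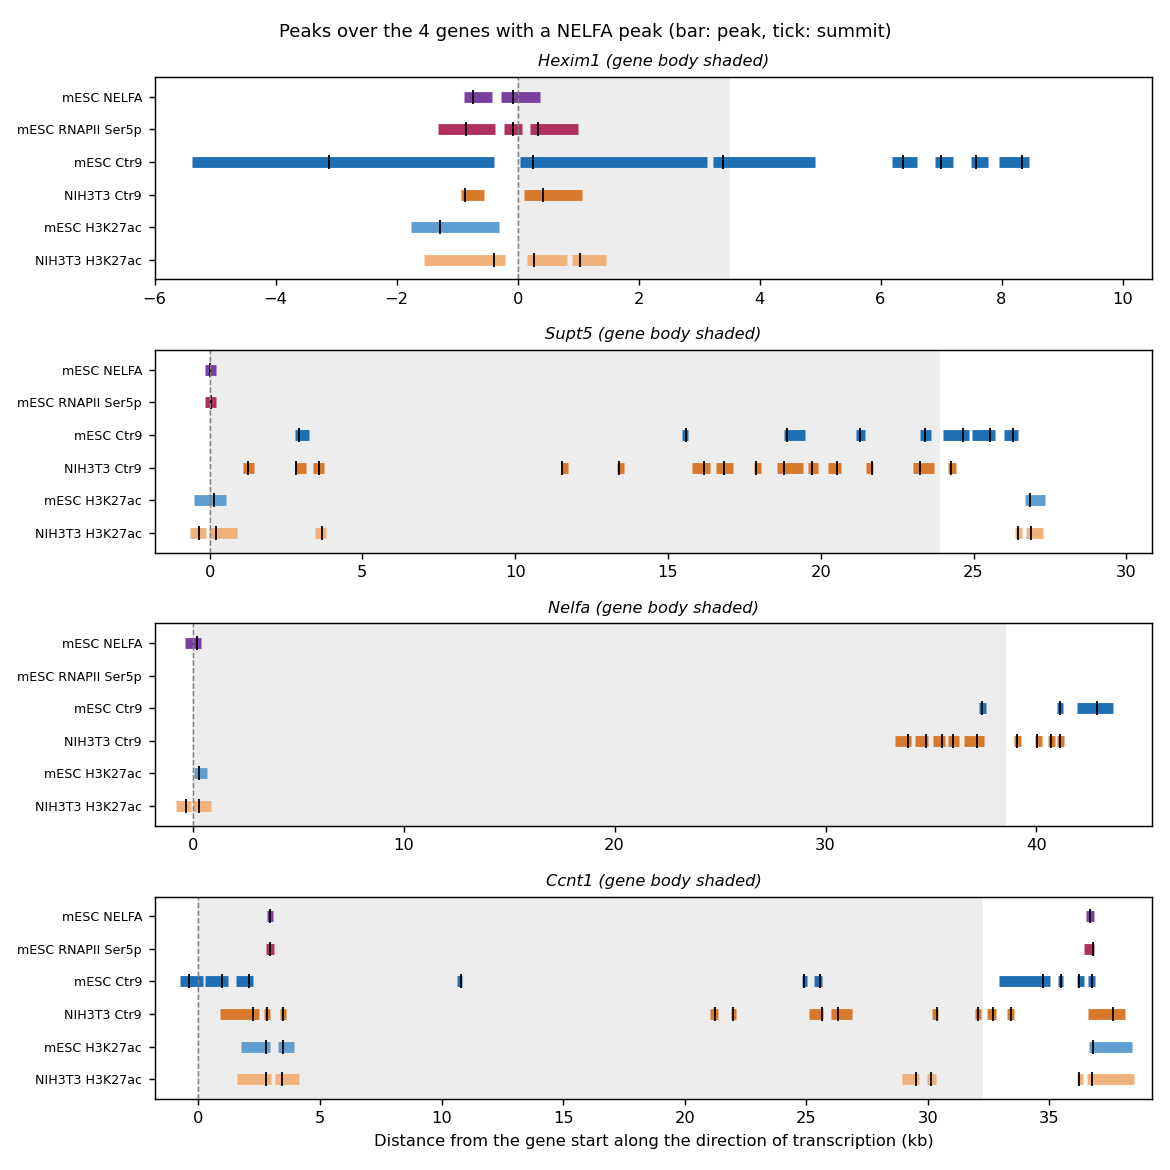
Peaks of 6 lists over the 4 genes with a NELFA peak, as distance in kb from the GENCODE start along the direction of transcription. Bars are peaks, black ticks are summits, grey marks the gene body and the dashed line its start. NELFA and Ser5p lie at the start of Hexim1 and Supt5, and Ctr9 covers the body of Hexim1 but the 3′ part of Nelfa.

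The DSIF genes had Ctr9 in both cell types. Supt5 had 8 peaks in mESCs, the strongest 794 bps past the end (7.20-fold), and 14 in NIH3T3 cells, of which 13 were spread over the body. Supt4a had its strongest mESC peak 2172 bps past the end (7.25-fold). In NIH3T3 cells its strongest peak was instead 418 bps before the start (4.65-fold), and a second lay 1328 bps past the end.
Presence of Ctr9 peaks differed between the cell types at 3 of the NELF genes. Nelfb, Nelfcd and Nelfe had 2, 9 and 3 Ctr9 peaks in mESCs and 0 in NIH3T3 cells, and their mRNA differed by less than 2-fold. Over all protein-coding genes with TPM of at least 1 in both cell types, 34.4% had a Ctr9 peak in mESCs and none in NIH3T3 cells, near the 3 of 10 among the members. The NIH3T3 list was shorter (22016 peaks). With the mESC list cut to the same number of peaks, Ctr9 was still found at all 10 members in mESCs. This cut does not match the libraries in reads or input, and whether these contributed to the difference was not tested. Nelfa had 3 peaks in mESCs and 9 in NIH3T3 cells. Several of these peaks lay in genes that face the member from the other side: all 3 Nelfe peaks in Cfb and an overlapping gene, 5 of 9 Nelfcd peaks in Ctsz, and 2 of 3 Nelfa peaks in Nsd2. Peaks of ChIP-seq carry no strand, so transcription of the member and of such a neighbour cannot be told apart there.

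H3K27ac summits lay within 1000 bps of the GENCODE start at 8 members in mESCs and at 9 in NIH3T3 cells, beside 59.3% and 83.3% of all expressed protein-coding genes. The exceptions were Ccnt1 in both cell types, whose summits were near the RefSeq start (297 and 233 bps from it), and Hexim1 in mESCs, whose only summit was at -1290 bps. In mESCs the strongest peak of a member ranged from 3.51-fold at Nelfb to 9.41-fold at Nelfa. In NIH3T3 cells it ranged from 12.2-fold at Nelfe to 32.1-fold at Ccnt1. The list as a whole had higher enrichments in NIH3T3 cells, with a median strongest peak of 15 against 5.44 over genes with a peak. The median background was 12.2 fragments in the mESC list and 3.96 in the NIH3T3 list. The backgrounds may be of unlike kinds, so neither enrichments nor percentiles compare the cell types like for like. By percentile within each list, Nelfa was at the 90.6th in mESCs and the 62.7th in NIH3T3 cells, and Nelfb at the 13.0th and the 53.3rd. Ccnt2 was at the 71.8th and the 90.5th, and Hexim1 at the 46.9th and the 59.4th. With fragments recovered as for NELFA, the mESC peak of Hexim1 rested on 252 fragments, the most of any member in that list. Its local background was 47.1 fragments, whereas the background under the NELFA peaks of Hexim1 was 6.36 and 7. Whether input or the H3K27ac library itself formed the mESC H3K27ac background is not given. The median background over 1022 mESC H3K27ac peaks was 12.2 and the 99th percentile was 45.3.

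Ser2p, the mark of elongating RNAPII, gave no peak at any member, beside 12.1% of expressed genes and 21.3% of highly expressed genes. With 1675 peaks and an unknown number of reads behind them, the list does not show that Ser2p was absent from the members. In the same list, 5 of the 24 pathway genes and 7 of the 8 mESC marker genes had a peak.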

How the data were processed

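The members and all gene lists were chosen with earlier results of these data known. RNA-seq and ChIP-seq data of mESCs and NIH3T3 cells were used as deposited, 1 library per assay and cell type; the 3 input libraries were not analysed here. Estimated counts and TPM per transcript were made by the authors with kallisto 0.46.1 on GENCODE M19. Peaks were called by the authors with MACS2 2.2.6 (q-value cutoff 0.01) on reads aligned to mm10 with Bowtie2 2.3.5.1, and blacklisted regions were removed. The deposited peak lists give fold enrichment over input, -log10 p-values and q-values, and a score that follows from the q-value and was not used further.

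Levels were the highest TPM of any transcript of a gene, compared as log2(TPM + 1) over protein-coding genes with at least 1 TPM in either cell type. Exact 95% intervals of count ratios came from the conditional binomial distribution. Because each group had 1 sample, no test, SD or p-value was computed. A peak counted for a gene if it overlapped its window (GENCODE M21) by at least 1 base. Local background and fragments at a summit were solved from fold enrichment and p. For NELFA, 99.4% of peaks gave a whole number of fragments within 0.05. The library scale was chosen to make most peaks whole, so this share is not an independent check. All members were named. Pathway genes were named if past 2-fold; others and neighbours named beside a member were chosen after their values were seen. Overlap, ratio and background code was tested on simulated data. The simulated backgrounds did not reach those at the NELFA peak of Nelfa or the mESC H3K27ac peak of Hexim1. Python 3.11.15, pandas 2.3.3, NumPy 2.4.6, SciPy 1.17.1, Matplotlib 3.10.9 and samtools 1.23.1 were used. Alternatives concerned the transcript summary, pseudocount, centring, peak threshold, window and gene start.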

Additional observations from a re-analysis of the deposited data

How the results depend on the processing

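With TPM summed over transcripts, the log2 ratio of mESCs over NIH3T3 cells reversed for Nelfb (from 0.43 to -0.0725) and Ccnt1 (from 0.14 to -0.1817). The number of members at least 2-fold higher in mESCs was 2 in every level setting but summed CPM, where it was 3 because Ccnt2 reached 1.03. Without a filter on low values, the share of all genes at least 2-fold higher was 13.5% in mESCs and 11.3% in NIH3T3 cells, since genes without expression enter the total. Members with a peak changed by at most 1 in any list: Nelfe lost Ctr9 in mESCs (9 left) when summits in another protein-coding gene were left out, and Hexim1 lost H3K27ac in mESCs (9 left) when the summit had to lie in the window. Measured from RefSeq starts, an alternative chosen after the data were seen that covers 8 members, 1 member in place of 2 had a mESC Ctr9 summit within 1000 bps of its start, 4 in place of 3 a NELFA summit and 3 in place of 2 a Ser5p summit. The Hexim1 summits moved from -84 to -178 bps (NELFA) and from -72 to -166 bps (Ser5p). The strongest mESC Ctr9 summit near the GENCODE start of Ccnt1 lay at 976 bps and the nearest at -397 bps. Fold enrichments of the strongest peak were unchanged in 93 of 132 comparisons with other settings, and 28 of 40 transcript shares moved when taken over estimated counts.

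No paired analysis was possible because each assay and cell type had 1 library; leaving out a replicate was not possible for the same reason. Library-to-library spread is therefore unknown for every value, and the numbers of reads behind the peak lists are not given with them.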
